A study of Mus musculus with 12 samples.

Results

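A set of 10 genes that serve protein folding in the endoplasmic reticulum (ER) was followed through 12 libraries of AML12 cells, a single immortalized line derived from mouse hepatocytes. The 10 genes, chosen by symbol from the 24824 genes of the table, were *Hspa5*, *Hsp90b1*, *Hyou1*, *Calr*, *Pdia4*, *Pdia6*, *Dnajb9*, *Herpud1*, *Sdf2l1* and *Xbp1*. All 10 were present once and all 10 were among the 10615 genes whose mean FPKM (fragments normalized to transcript length and sequencing depth) reached 1. They were set against 24 genes of the cytosolic heat shock response. Group A was cultured untreated in standard growth medium, group B received 300 μM CuCl2 with 40 nM elesclomol (Cu/ES), a small molecule that carries copper into cells, group C received the same Cu/ES with 1000 μM taurocholic acid (TCA), a conjugated bile acid, and group D was given 1000 μM of TCA only. Every group was labelled wild-type in genotype, which was not checked here, was treated for 24 h and had 3 libraries of polyadenylated RNA. The labels do not say whether the 3 libraries of a group came from separate cultures, so the p-values measure the spread between libraries, which may be technical.

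Proteins that are secreted or placed in membranes fold in the ER with the help of chaperones, sugar-binding lectins and disulfide isomerases. When unfolded proteins accumulate there, the sensors IRE1, ATF6 and PERK start the unfolded protein response (UPR). IRE1 splices the *Xbp1* mRNA, ATF6 is cut in the Golgi to release a transcription factor, and PERK slows translation and favours ATF4. XBP1 and ATF6 raise the transcription of ER chaperones and of genes for ER-associated degradation (ERAD), the route by which misfolded proteins leave the ER. Hepatocytes secrete most plasma proteins and are rich in ER. The cytosol has its own program, driven by HSF1, which raises cytosolic chaperones such as HSP70, HSP90 and their J-domain partners. Gene-level values do not distinguish spliced from unspliced *Xbp1*.

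Several facts of the whole series bear on the results. Recovered library totals ran from 29112016 to 39772245 reads, with all of group B and C below all of group A and D. Replicate 2 stood apart from replicates 1 and 3 in all 4 groups (chi-square per degree of freedom 18.2 to 51.8 against either of them, and 6.02 to 9.92 between replicates 1 and 3), and each count of the 10 genes below is also given without these 4 libraries where it differs. The hepatocyte label was at odds with some of its defining markers: *Alb*, *Hnf4a*, *Apob* and *Fgb* did not exceed 0.0758 FPKM in any library, and of the 10 hepatocyte markers in the table only the keratins *Krt8* and *Krt18* reached a mean of 1. The other 8 summed to between 0.0112 and 0.0747 FPKM without treatment (A), 2.04 and 3.45 with Cu/ES (B), 1.42 and 2.14 with Cu/ES and TCA (C), and 0 and 0.00449 with TCA (D). Of 8 markers of other cell types *Krt19*, *Sox9* and *Pecam1* reached a mean of 1, and the 8 summed to between 231 and 326 FPKM in group A, 121 and 146 in group B, 147 and 153 in group C, and 158 and 246 in group D. With Cu/ES *Pecam1* (log2 fold change 2.65 in group B vs. A) and *Sox9* (2.19) rose and *Krt19* (-1.78) fell, and *Pecam1* rose by a further 1.15 in group C vs. B (limma, Benjamini-Hochberg adjusted p at most 7.22e-05). All 10 hepatocyte markers, mostly *Krt8* and *Krt18*, summed to between 596 and 649 FPKM in group A, 236 and 287 in group B, 173 and 209 in group C, and 697 and 717 in group D. The part of these markers in the results was not tested. In the GENCODE M21 annotation *Hsp90b1*, *Pdia4*, *Dnajb9* and *Herpud1* overlap noncoding genes that were not analysed here, and reads of such pairs may be mixed. Over all genes tested the median log2 fold change was -1.10 in group B vs. A and -1.13 in group C vs. D, whereas it was -0.03 in group C vs. B and -0.01 in group D vs. A. In the Cu/ES comparisons a fall of about that size on the deposited scale was therefore the level of the median gene, and the value after median-ratio scaling is given beside it. In bulk samples, fewer cells of a type and less RNA per cell cannot be told apart.

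The promoters are shown first because some of the 9 genes with a promoter sequence hold an exact match to an element that ATF6 or XBP1 is known to read. The others hold no exact match to the elements searched here. RefSeq promoter sequences of GRCm38.p6 were matched for 9 of the 10 genes, *Hyou1* being the exception, and were searched on both strands from 250 bases before to 50 bases after the start site. The ER stress response element (ERSE), CCAAT and CCACG separated by 9 bases, was present in 39 of 32851 promoters (0.119%). *Hspa5*, *Hsp90b1*, *Calr* and *Pdia6* were among them, with 2 copies in *Hsp90b1*. The shorter ERSE-II, ATTGG and CCACG separated by 1 base, which shares its CCACG with the ERSE, was in 12 promoters (0.0365%), and *Herpud1* was one of them. The core TGACGTGG of the UPR element was in 222 promoters (0.676%) and in none of the 9. The heat shock element, written as 3 alternating blocks of GAA and TTC each separated by 2 bases, was in 198 promoters (0.603%), in none of the 9, and in 2 of the 19 matched cytosolic genes (*Hsph1* and *Chordc1*), while no cytosolic gene had an ERSE. On the lists of further ER genes used below, 4 of 24 matched folding genes and 2 of 14 matched ERAD genes had an ERSE. Matches were counted over the whole lists, and not every ERAD gene with an ERSE was among the genes tested. The ERSE-II was in 1 of these folding genes, and the UPR core was in 2 of them and in 1 of the ERAD genes. These are exact matches of letters in one window and not observed binding. Variant forms of the elements were not searched, so a gene without a match may still hold such a site.

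The 250 bases before the start site follow for the 5 genes with an element and for *Dnajb9*. The latter has no exact match to any of the 4 and had the highest fold change of the 10 with Cu/ES. Capitals mark CCAAT and CCACG of an ERSE, ATTGG and CCACG of the ERSE-II, or CGTGG and ATTGG where the ERSE lies on the other strand. *Hspa5* lies on the plus strand (chr2:34771840-34772089), *Hsp90b1* on the minus strand (chr10:86705445-86705694), *Calr* on the minus strand (chr8:84846932-84847181), *Pdia6* on the plus strand (chr12:17266339-17266588), *Herpud1* on the plus strand (chr8:94386179-94386428) and *Dnajb9* on the minus strand (chr12:44210069-44210318). Each is printed 5′ to 3′ on the strand of its gene.
Hspa5: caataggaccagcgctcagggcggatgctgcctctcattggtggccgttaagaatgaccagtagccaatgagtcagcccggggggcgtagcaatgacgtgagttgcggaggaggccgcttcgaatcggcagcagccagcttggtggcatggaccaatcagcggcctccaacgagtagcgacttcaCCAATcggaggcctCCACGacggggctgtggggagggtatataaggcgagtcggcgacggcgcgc
Hsp90b1: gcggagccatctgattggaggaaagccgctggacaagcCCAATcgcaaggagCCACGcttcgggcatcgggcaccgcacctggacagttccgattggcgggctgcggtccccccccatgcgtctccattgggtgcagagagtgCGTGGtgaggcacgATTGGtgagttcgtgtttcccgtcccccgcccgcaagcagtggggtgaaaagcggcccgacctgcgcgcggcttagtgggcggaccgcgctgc
Calr: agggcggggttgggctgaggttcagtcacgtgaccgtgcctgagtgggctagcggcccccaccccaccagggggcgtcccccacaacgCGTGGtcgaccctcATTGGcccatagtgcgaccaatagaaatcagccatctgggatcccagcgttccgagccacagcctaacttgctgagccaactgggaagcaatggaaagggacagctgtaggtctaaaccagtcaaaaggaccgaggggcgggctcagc
Pdia6: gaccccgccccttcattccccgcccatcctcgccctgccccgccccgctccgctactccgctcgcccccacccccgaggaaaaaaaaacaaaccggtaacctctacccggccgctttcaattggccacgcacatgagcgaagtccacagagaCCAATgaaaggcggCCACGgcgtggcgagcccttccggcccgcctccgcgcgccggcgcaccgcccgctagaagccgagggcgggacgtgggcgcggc
Herpud1: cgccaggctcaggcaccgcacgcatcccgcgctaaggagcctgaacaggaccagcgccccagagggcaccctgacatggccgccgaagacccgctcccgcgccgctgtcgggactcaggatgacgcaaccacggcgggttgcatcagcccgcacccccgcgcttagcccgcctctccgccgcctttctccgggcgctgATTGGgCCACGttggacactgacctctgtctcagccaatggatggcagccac
Dnajb9: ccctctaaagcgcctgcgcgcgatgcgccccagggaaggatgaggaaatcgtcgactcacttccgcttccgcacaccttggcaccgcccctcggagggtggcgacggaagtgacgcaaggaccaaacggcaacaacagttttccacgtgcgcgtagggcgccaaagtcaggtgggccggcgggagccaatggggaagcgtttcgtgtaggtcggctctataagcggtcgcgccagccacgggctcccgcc
The ERSE lay 65 to 47 bases before the start site in *Hspa5* and 98 to 80 bases before it in *Pdia6*. It lay on the other strand 162 to 144 bases before the start site in *Calr*. In *Hsp90b1* one copy lay at 212 to 194 bases and the other, on the other strand, at 107 to 89 bases. The ERSE-II of *Herpud1* lay at 52 to 42 bases. *Pdia4*, *Sdf2l1* and *Xbp1* held none of the 4 elements in this window.

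*Hspa5* encodes BiP (GRP78), the HSP70 of the ER lumen, which binds nascent chains and holds the UPR sensors inactive. Its FPKM was 762, 709 and 825 without treatment (A), 1494, 1767 and 1491 with Cu/ES (B), 1965, 2178 and 1906 with Cu/ES and TCA (C), and 1063, 866 and 996 with TCA (D). The groups did not overlap and ran in the order A, D, B, C. *Hspa5* ranked between 61 and 76 among all genes by FPKM in group A and between 37 and 43 in group C. From group A to B the mean went from 765 ± 58.1 to 1584 ± 158 (mean ± SD, n = 3), 2.07-fold, with a log2 fold change of 1.05 (standard error, SE, 0.09, limma, Benjamini-Hochberg adjusted p = 7.03e-08), which was 2.33 after median-ratio scaling and -0.01 after quantile normalization. Without the libraries of replicate 2 it was 0.91, below the threshold of 1 on the log2 scale.

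*Dnajb9* encodes ERdj4, a J-domain partner of BiP that is a known target of spliced XBP1. Its FPKM was 25.5, 20.6 and 23.6 without treatment (A) and 267, 289 and 250 with Cu/ES (B). With Cu/ES and TCA (C) it was 223, 319 and 243, and with TCA (D) 23.4, 22.3 and 25.4. The libraries with Cu/ES lay far above those without it, and groups B and C overlapped, as did groups A and D. The log2 fold change of group B vs. A was 3.48 (11.5-fold, SE 0.12, limma, Benjamini-Hochberg adjusted p = 1.59e-12), and it was between 3.14 and 4.73 under TPM, quantile and median-ratio scaling.

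*Hyou1* encodes GRP170, the ER member of the HSP110 family and a nucleotide exchange factor for BiP. Its FPKM was 93.2, 83.1 and 94.2 without treatment (A), 45.4, 38.2 and 41.9 with Cu/ES (B), 116, 78.5 and 109 with Cu/ES and TCA (C), and 129, 108 and 131 with TCA (D). Group B was below all other libraries, while group C spanned the range of group A. The log2 fold change of group B vs. A was -1.09 (SE 0.13, limma, Benjamini-Hochberg adjusted p = 1.18e-06) and 0.17 after median-ratio scaling, where it did not pass (adjusted p = 0.174, limma).

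*Sdf2l1* encodes a lumenal protein that works with BiP and the ER J-domain proteins. Its FPKM was 44.5, 40.3 and 48.2 without treatment (A), 4.13, 4.03 and 4.16 with Cu/ES (B), 6.35, 5.14 and 6.20 with Cu/ES and TCA (C), and 53.9, 40.9 and 47.5 with TCA (D). This was the deepest fall of the 10 genes with Cu/ES, 10.8-fold, from 1736 to 2088 reads per library in group A to 142 to 145 in group B. The log2 fold change of -3.14 (SE 0.10, limma, Benjamini-Hochberg adjusted p = 1.31e-12) remained -1.98 after median-ratio scaling.

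*Hsp90b1* encodes GRP94, the HSP90 of the ER. Its FPKM was 642, 656 and 676 without treatment (A), 608, 591 and 592 with Cu/ES (B), 768, 797 and 765 with Cu/ES and TCA (C), and 722, 621 and 623 with TCA (D). Group B was below and group C above all other libraries, and groups A and D overlapped. The log2 fold change of group B vs. A was -0.14 (95% CI -0.28 to -0.00, limma, Benjamini-Hochberg adjusted p = 0.0529) and did not pass. The call depended on the scaling, with 1.14 after median-ratio scaling, -0.51 in TPM and -0.93 after quantile normalization, each of which passed (limma adjusted p = 1.19e-08, 1.67e-07 and 1.27e-09).

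*Calr* encodes calreticulin, a lectin chaperone for glycoproteins that also stores calcium. Its FPKM was 473, 493 and 500 without treatment (A), 261, 249 and 267 with Cu/ES (B), 255, 248 and 258 with Cu/ES and TCA (C), and 573, 471 and 532 with TCA (D). Groups B and C overlapped and lay below groups A and D, which overlapped too. The log2 fold change of group B vs. A was -0.92 (SE 0.07, limma, Benjamini-Hochberg adjusted p = 9.31e-09) and 0.37 after median-ratio scaling.

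*Pdia4* (ERp72) and *Pdia6* (P5) encode disulfide isomerases. FPKM of *Pdia4* was 121, 122 and 127 without treatment (A), 46.8, 45.3 and 48.6 with Cu/ES (B), 66.8, 58.2 and 69.8 with Cu/ES and TCA (C), and 124, 110 and 121 with TCA (D). FPKM of *Pdia6* was 272, 269 and 281 without treatment (A), 136, 119 and 137 with Cu/ES (B), 178, 159 and 172 with Cu/ES and TCA (C), and 301, 251 and 273 with TCA (D). In both genes group B was lowest and group C next, without overlap, and groups A and D overlapped. The log2 fold changes of group B vs. A were -1.38 for *Pdia4* and -1.07 for *Pdia6* (limma, Benjamini-Hochberg adjusted p = 1.89e-10 and 6.16e-09), and -0.11 and 0.21 after median-ratio scaling. Reads of *Pdia6* and its antisense neighbour *Atp6v1c2* could be mixed where strand was not used in counting, but *Atp6v1c2* did not exceed 0.131 FPKM.

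*Herpud1* encodes a membrane protein that organizes the ERAD ligase complex. Its FPKM was 79.6, 86.3 and 83.0 without treatment (A), 24.8, 27.7 and 26.1 with Cu/ES (B), 31.1, 33.6 and 28.5 with Cu/ES and TCA (C), and 119, 117 and 122 with TCA (D). The 4 groups did not overlap and ran in the order B, C, A, D. The log2 fold change of group B vs. A was -1.63 (SE 0.07, limma, Benjamini-Hochberg adjusted p = 1.55e-11) and -0.37 after median-ratio scaling.

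*Xbp1* encodes the transcription factor of the IRE1 branch. Its FPKM was 101, 103 and 105 without treatment (A), 23.5, 21.2 and 23.5 with Cu/ES (B), 17.6, 14.7 and 17.7 with Cu/ES and TCA (C), and 118, 111 and 126 with TCA (D). *Xbp1* was the only one of the 10 genes whose groups ran in the order C, B, A, D without overlap. The log2 fold change of group B vs. A was -2.13 (4.54-fold lower, SE 0.08, limma, Benjamini-Hochberg adjusted p = 3.67e-12) and -0.88 after median-ratio scaling.

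**Figure D1:**
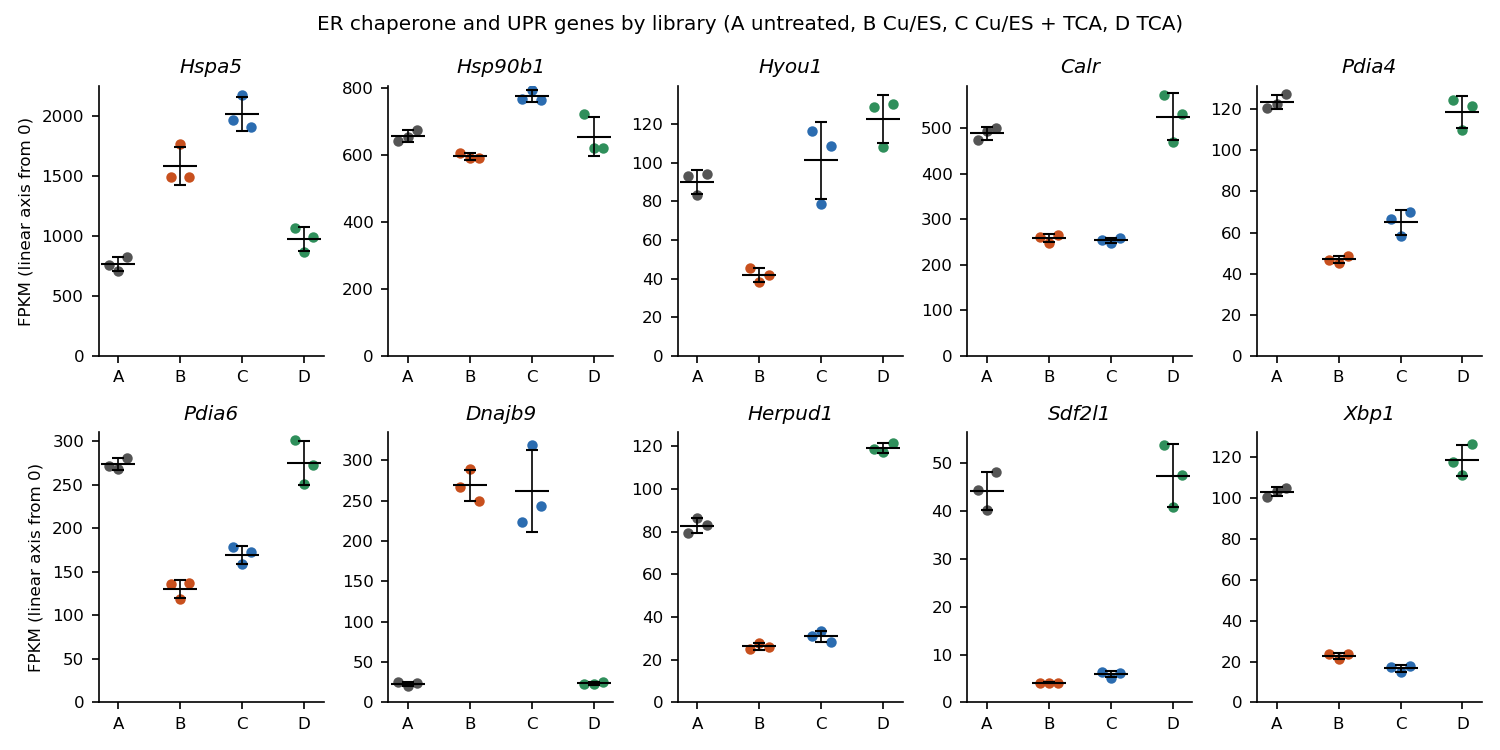
FPKM (vertical axis, linear from 0) of the 10 ER genes in each library of groups A to D (horizontal axis); points are libraries and black marks give the mean ± SD of 3 libraries. *Dnajb9* is high in groups B and C (223 to 319 FPKM against 20.6 to 25.5 without Cu/ES), whereas *Sdf2l1*, *Herpud1* and *Xbp1* are low there.

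Counted together for group B vs. A, 2 of the 10 genes (*Dnajb9* and *Hspa5*) were higher past both an adjusted p of 0.05 and a log2 fold change of 1, where 10.1% of all genes tested were. Lower past both thresholds were 6 of 10, where 53.0% of all genes were. By the adjusted p alone 2 were higher (background 20.1%) and 7 lower (background 72.0%). The shares of the 10 genes thus lay near the background in both directions. Their median log2 fold change was -1.08 against -1.10 for all genes tested. Under median-ratio scaling 3 were higher (*Dnajb9*, *Hspa5* and *Hsp90b1*) and 1 lower (*Sdf2l1*) past both thresholds. Without the libraries of replicate 2, and also without replicate 2 of group A alone or of group B alone, only *Dnajb9* was higher past both thresholds.

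The cytosolic heat shock list moved the other way from most genes. Past both thresholds 15 of its 24 genes were higher in group B than in group A and none was lower. On the adjusted p alone (limma with Benjamini-Hochberg) 19 were higher and 2 lower. The median log2 fold change of the list was 2.19, and after median-ratio scaling all 24 were positive. The 24 genes together took 0.914% ± 0.0129 of summed FPKM without treatment (A), 5.76% ± 0.542 with Cu/ES (B), 4.60% ± 0.203 with Cu/ES and TCA (C) and 0.858% ± 0.0326 with TCA (D) (mean ± SD, n = 3). The 10 ER genes took 0.690% ± 0.0208, 0.600% ± 0.0343, 0.783% ± 0.0138 and 0.770% ± 0.0494. The ER share ran from 0.569% to 0.813% over the libraries, and group B was below all other libraries. As a sum it joins genes that rose with Cu/ES, such as *Hspa5*, and genes that fell. The cytosolic share was several times higher with Cu/ES.

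*Hspa1b* encodes the stress-inducible HSP70. Its FPKM was 0.492, 1.21 and 0.746 without treatment (A), 7327, 8946 and 7252 with Cu/ES (B), 5443, 6556 and 5453 with Cu/ES and TCA (C), and 0.993, 1.34 and 1.05 with TCA (D). *Hspa1a* was listed at 0 in all untreated libraries (A), at 338, 682 and 308 FPKM with Cu/ES (B), at 108, 185 and 138 with Cu/ES and TCA (C), and at 0.00898, 0 and 0 with TCA (D). The coding sequences of both genes are nearly identical, so the division of reads between them is uncertain, but neither gene overlapped between the libraries with and without Cu/ES. The small heat shock gene *Cryab* followed as the third largest rise of the list, with a log2 fold change of 7.72 (limma, Benjamini-Hochberg adjusted p = 2.90e-13). No ER gene had a rise of that size.

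**Figure D2:**
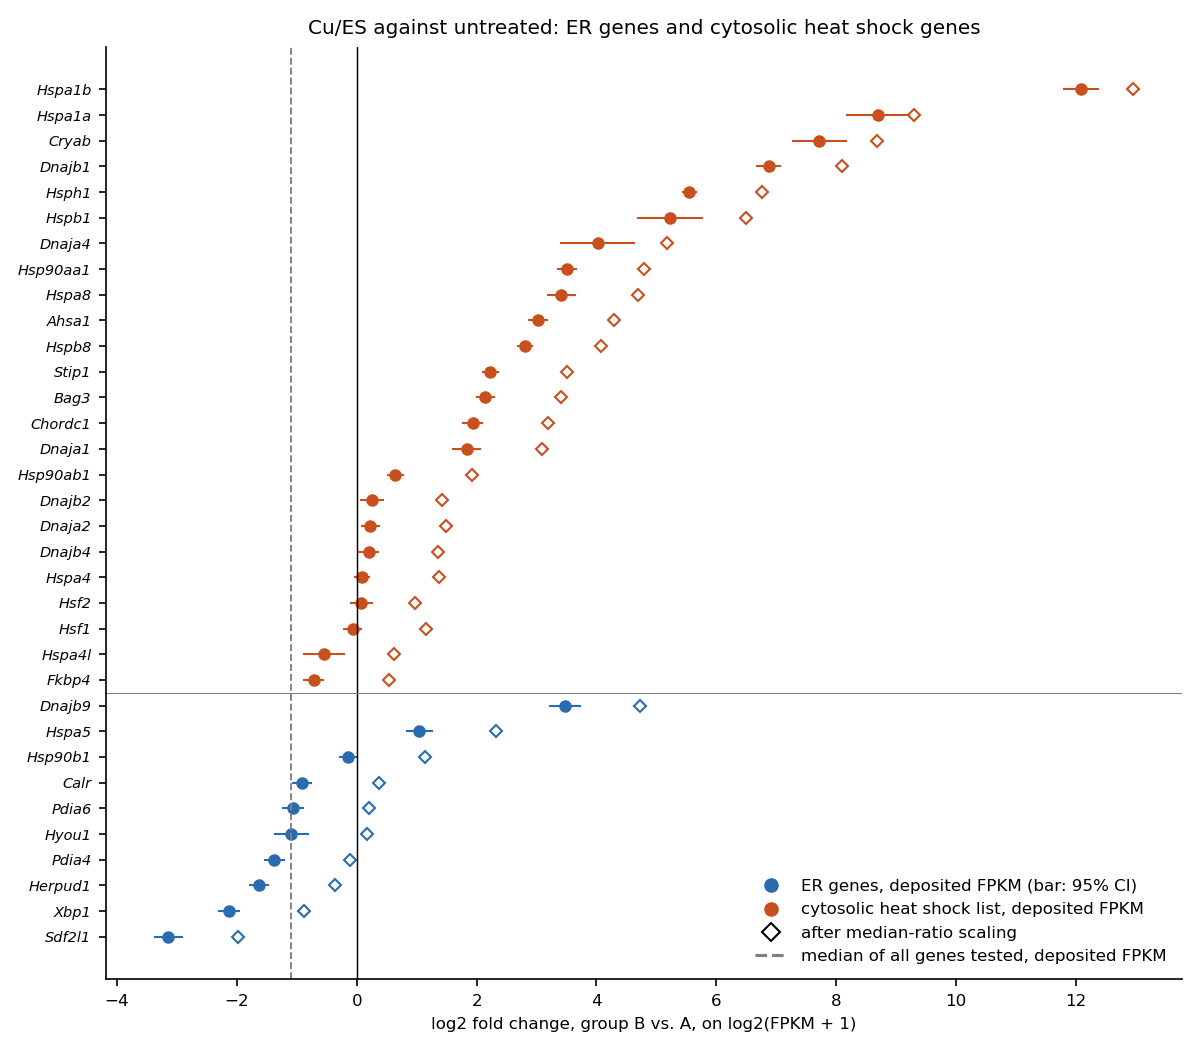
Log2 fold change of group B vs. A on log2(FPKM + 1) (horizontal axis) for the 10 ER genes (blue) and 24 cytosolic heat shock genes (orange); filled circles with 95% CI use deposited FPKM, open diamonds use median-ratio scaling, and the dashed line is the median of all genes tested (-1.10). The ER genes lie on both sides of that line, from -3.14 for *Sdf2l1* to 3.48 for *Dnajb9*, and every cytosolic gene lies to its right.

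Other genes of the ER, taken from lists written by hand, were also mostly lower with Cu/ES on the deposited scale. Among 27 further folding enzymes and chaperones none was higher and 16 were lower past both thresholds in group B vs. A. Of all genes tested 10.1% were higher and 53.0% lower. *Erp29* (log2 fold change -3.82), the oxidase *Ero1a* (-3.71) and the thioredoxin-domain gene *Txndc11* (-3.29) fell most. Of 18 ERAD genes 3 were higher and 11 lower. *Ubxn4* (1.89), which recruits p97 to the ER, the ubiquitin-conjugating enzyme *Ube2g2* (1.53) and *Selenok* (1.50) rose, whereas *Edem2* (-3.69), *Derl2* (-2.91) and *Sel1l* (-2.65) fell. The list medians were -1.14 and -1.24, close to that of all genes, and the shares higher and lower were split more evenly after median-ratio scaling, at 7 and 5 for the folding list and 7 and 5 for ERAD.

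For the counts of this paragraph the background in group B vs. A was again 10.1% higher and 53.0% lower past both thresholds. Of 8 UPR sensors and their processing enzymes none was higher and 4 were lower past both thresholds, and 2 and 3 after median-ratio scaling. *Mbtps1*, the protease that first cuts ATF6, fell from 54.8 ± 3.06 to 2.53 ± 0.159 FPKM (log2 fold change -3.98, -2.86 after median-ratio scaling), and *Creb3l2* (-2.40) and *Mbtps2* (-2.31) fell as well. Of 12 genes listed by hand as the PERK branch 4 were higher and 2 lower, and 7 and 2 after median-ratio scaling. PERK activity was not measured, and whether these genes followed PERK was not tested. *Atf3* (5.67), the phosphatase subunit *Ppp1r15a* (4.01) and *Cebpb* (2.29) rose, and *Atf5* (-3.28) and *Trib3* (-2.37) fell. None of 24 translocon, signal peptidase and glycosylation genes was higher and 8 were lower, led by *Spcs3* (-3.11), *Ostc* (-2.41) and *Tram1* (-2.14), but after median-ratio scaling 8 were higher and 2 lower. The median of this list was -0.54 against -1.10 for all genes tested, and 17 of its 24 genes lay above the latter. None of 21 ER-to-Golgi transport genes was higher and 12 were lower, led by *Kdelr3* (-3.20), *Kdelr1* (-2.82) and *Arcn1* (-2.81), against 4 higher and 4 lower after median-ratio scaling. KDEL receptors return BiP and other lumenal chaperones from the Golgi. Every gene named here passed the adjusted p of limma with Benjamini-Hochberg, at most 1.80e-09.

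**Figure D3:**
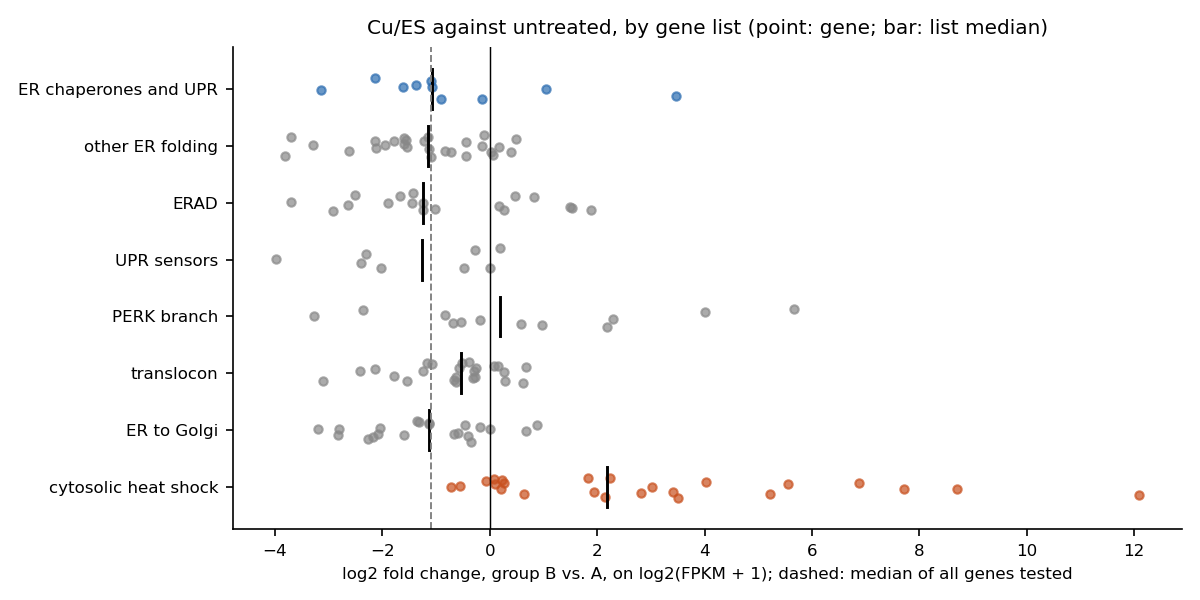
Log2 fold change of group B vs. A on log2(FPKM + 1) (horizontal axis) by gene list (rows); each point is a gene, each black bar a list median, and the dashed line the median of all genes tested. The medians of the 10 ER genes (-1.08), of the folding list (-1.14) and of ERAD (-1.24) lie near the dashed line. Those of the translocon list (-0.54) and the PERK branch (0.20) lie to its right, and that of the cytosolic heat shock list (2.19) lies far to its right.

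Each of 4 ER chaperones was next divided by a cytosolic member of its family in the same library, which removes the scaling of the library. The partners were picked by hand, and the ratios hold for these partners only. FPKM is already divided by gene length, so the ratios compare levels per length. *Hspa5* over *Hspa8*, the constitutive cytosolic HSP70, was 1.005, 0.782 and 1.03 without treatment (A), 0.176, 0.193 and 0.174 with Cu/ES (B), 0.284, 0.270 and 0.277 with Cu/ES and TCA (C), and 1.97, 1.24 and 1.83 with TCA (D). The mRNA of BiP was thus near that of its relative in untreated cells and well below it with Cu/ES, although *Hspa5* itself was higher. *Hspa8* FPKM, whose reads may be shared with processed pseudogenes, was 823 ± 76.1 without treatment (A), 8741 ± 371 with Cu/ES (B), 7287 ± 687 with Cu/ES and TCA (C) and 594 ± 90.8 with TCA (D) (mean ± SD, n = 3).

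*Hsp90b1* over *Hsp90ab1*, the constitutive cytosolic HSP90, was 0.348, 0.358 and 0.358 without treatment (A), 0.209, 0.209 and 0.199 with Cu/ES (B), 0.259, 0.242 and 0.260 with Cu/ES and TCA (C), and 0.396, 0.350 and 0.355 with TCA (D). *Hyou1* over *Hsph1*, the cytosolic HSP110, was 8.67, 7.93 and 9.27 without treatment (A), 0.0853, 0.0700 and 0.0785 with Cu/ES (B), 0.278, 0.180 and 0.260 with Cu/ES and TCA (C), and 7.95, 6.97 and 8.56 with TCA (D). *Dnajb9* over *Dnajb1*, a cytosolic J-domain protein, was 2.08, 1.55 and 1.85 without treatment (A), 0.177, 0.160 and 0.160 with Cu/ES (B), 0.255, 0.298 and 0.277 with Cu/ES and TCA (C), and 1.66, 1.70 and 1.65 with TCA (D). In all 4 pairs group B was lowest and group C next, without overlap with any other group. *Hsph1* FPKM was 10.5 ± 0.292 without treatment (A) and 537 ± 6.92 with Cu/ES (B), and *Dnajb1* FPKM was 12.8 ± 0.532 and 1622 ± 158 (mean ± SD, n = 3).

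The log2 ratio differed between groups B and A by -2.36 for *Hspa5*, -0.79 for *Hsp90b1*, -6.79 for *Hyou1* and -3.45 for *Dnajb9*. Even for *Dnajb9*, whose own level was 11.5-fold higher, the partner *Dnajb1* gained more. Between groups C and B the log2 ratio was higher by 0.62, 0.30, 1.60 and 0.74 in the same order. Between groups D and A it was higher by 0.82 for *Hspa5* to *Hspa8*, without overlap, and differed by 0.05, -0.14 and -0.12 for the other 3 pairs, which overlapped. Each difference without overlap had an exact permutation p of 0.1 (two-sided, n = 3 libraries against 3), the smallest this design allows, and 0.123 after Benjamini-Hochberg adjustment over 16 comparisons, so none could pass 0.05.

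**Figure D4:**
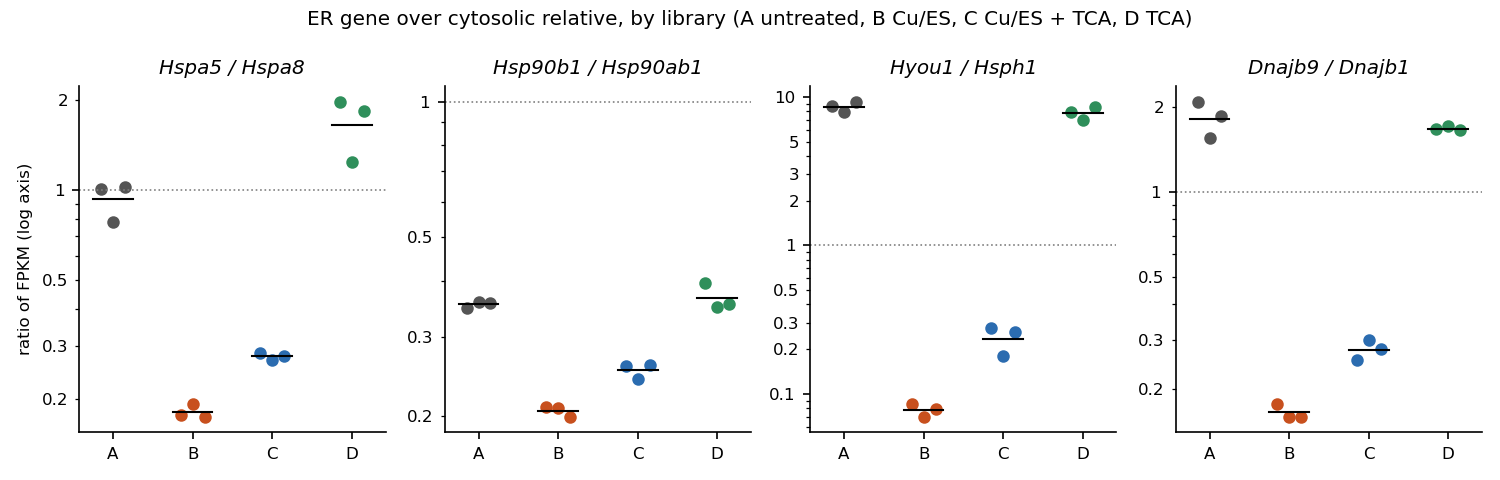
Ratio of FPKM of each ER gene to its cytosolic relative (vertical axis, log scale) by library in groups A to D; bars are geometric means and the dotted line marks equal levels. In every panel group B is lowest and group C lies above it, for example 0.174 to 0.193 and 0.270 to 0.284 for *Hspa5* over *Hspa8*.

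The comparison of group C vs. B asks what TCA changes in cells that receive Cu/ES. Of the 10 ER genes, 7 passed the adjusted p alone as higher in group C, where 20.4% of all genes tested were, and 1 was lower, where 23.6% were. Past both thresholds 1 was higher (background 1.13%) and none was lower (background 1.16%). The median log2 fold change of the 10 genes was 0.36 against -0.03 for all genes. The counts by adjusted p were 7 and 1 also under median-ratio scaling and without the libraries of replicate 2.

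*Hyou1* rose most, from 41.8 ± 3.61 to 101 ± 20.1 FPKM (mean ± SD, n = 3), 2.42-fold, with a log2 fold change of 1.24 (SE 0.13, limma, Benjamini-Hochberg adjusted p = 6.96e-06). *Pdia4* (0.46), *Sdf2l1* (0.43), *Pdia6* (0.38), *Hsp90b1* (0.38), *Hspa5* (0.35) and *Herpud1* (0.23) rose by less on the log2 scale, with adjusted p-values from 2.42e-04 to 0.0139 (limma with Benjamini-Hochberg). *Herpud1* did not pass without replicate 1 of group B (0.20, limma adjusted p = 0.0628), nor *Sdf2l1* with limma-voom on recovered reads (0.51, adjusted p = 0.119). *Xbp1* fell by 0.43 on the log2 scale (SE 0.08, limma, Benjamini-Hochberg adjusted p = 5.98e-04). *Calr* (-0.03, 95% CI -0.18 to 0.12) and *Dnajb9* (-0.05, 95% CI -0.30 to 0.20) did not pass.

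In the cytosolic list the counts ran the other way. By the adjusted p 2 of 24 genes were higher and 11 lower in group C, and past both thresholds none was higher and 2 were lower, with a median log2 fold change of -0.28. *Hspb1* (-1.98) and *Hspa1a* (-1.56) fell most (limma, Benjamini-Hochberg adjusted p = 3.54e-05 and 1.65e-04). *Dnajb1* (-0.78) and *Hsph1* (-0.34) fell too, whereas *Hspa8* (-0.27, limma adjusted p = 0.0544) and *Hsp90ab1* (0.08) did not pass. Counts in the other ER lists ran in both directions, and differences between lists were not tested. Of 27 folding genes, 5 were higher and 10 lower by adjusted p, with *Fkbp11*, a prolyl isomerase, lowest (-1.19). For ERAD it was 5 and 1 of 18, for the sensors 2 and 1 of 8, for the PERK branch 4 and 3 of 12, for the translocon 4 and 10 of 24, and for ER-to-Golgi transport 4 and 9 of 21.

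The comparison of group D vs. A asks what TCA changes without Cu/ES. None of the 10 ER genes passed both thresholds, where 0.0659% of all genes tested were higher and 0.151% lower. By the adjusted p alone 3 were higher (background 10.5%) and none lower (background 11.5%). *Herpud1* rose from 82.9 ± 3.35 to 119 ± 2.21 FPKM (mean ± SD, n = 3), with a log2 difference of 0.52 (SE 0.07, limma, Benjamini-Hochberg adjusted p = 3.09e-04). *Hyou1* (0.44) and *Hspa5* (0.35) rose with limma adjusted p = 0.0258 and 0.0192, but each lost the call when replicate 1 or 2 of group A or replicate 1 or 3 of group D was left out, with adjusted p-values up to 0.0945 and 0.0864, or when no minimum FPKM was set (0.0931 and 0.0736). *Hyou1* also lost it in TPM (limma adjusted p = 0.0577). Without the 4 libraries of replicate 2 the higher genes were 5, with *Xbp1* (0.25) and *Calr* (0.18) added.

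On all 12 libraries the other 7 genes did not pass, with log2 fold changes between -0.06 for *Pdia4* and 0.20 for *Xbp1*, which passed after median-ratio scaling (0.24, limma adjusted p = 0.0394). *Dnajb9* was at 0.03 (95% CI -0.22 to 0.28). The 12 genes listed as the PERK branch were all positive in group D vs. A, and 9 passed the adjusted p, with a median log2 fold change of 0.58. Whether PERK itself had a part in this was not tested. *Atf5* was the one past both thresholds (1.33, limma, Benjamini-Hochberg adjusted p = 1.23e-05). Of the 24 cytosolic genes 8 were higher by adjusted p and 1, *Hspa8* (-0.48), was lower, with a median of 0.16. Of the remaining lists 2 of 27 folding genes were higher and 3 lower, 5 of 18 ERAD genes, 2 of 8 sensors and 2 of 24 translocon genes were higher with none lower, and 2 of 21 transport genes were higher and 2 lower.

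Whether TCA made a different difference with Cu/ES than without it was tested as the interaction, the log2 fold change of group C vs. B minus that of group D vs. A. There were 4 ER genes with a positive interaction by adjusted p, where 17.7% of all genes tested did, and 2 a negative one, where 19.8% did. *Hyou1* (0.80), *Pdia4* (0.52), *Hsp90b1* (0.39) and *Pdia6* (0.38) were positive, with limma adjusted p = 0.00363, 0.00200, 0.00503 and 0.0163. *Xbp1* (-0.63) and *Herpud1* (-0.29) were negative, with limma adjusted p = 7.97e-04 and 0.0342. Without the libraries of replicate 2 there were 5 positive and 3 negative genes, with *Sdf2l1* (0.37) and *Calr* (-0.22) added. *Hspa5* had an interaction of 0.00 (95% CI -0.28 to 0.29). Its log2 difference was 0.35 with TCA in either setting. In the cytosolic list 1 gene was positive and 15 were negative, with a median of -0.45.

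**Figure D5:**
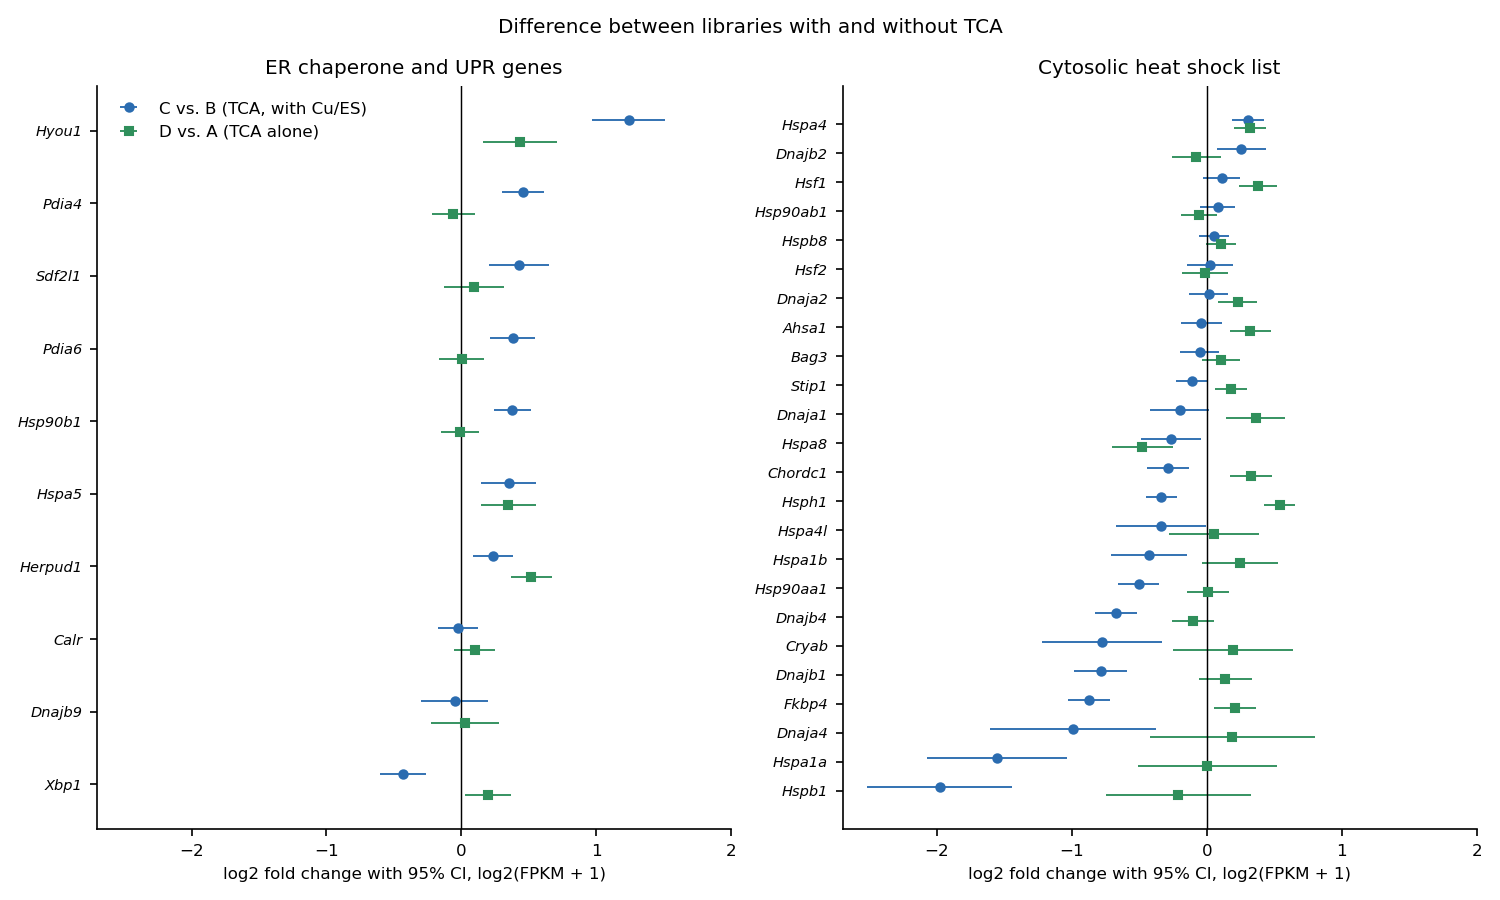
Log2 fold change with 95% CI on log2(FPKM + 1) (horizontal axis) for TCA with Cu/ES (group C vs. B, blue circles) and TCA alone (group D vs. A, green squares), for the 10 ER genes (left) and the 24 cytosolic genes (right). Among the ER genes 7 circles lie above 0 with *Hyou1* at 1.24, and among the cytosolic genes 17 circles lie below 0 with *Hspb1* at -1.98.

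The comparison of group C vs. D sets Cu/ES against none in the presence of TCA and uses no library of groups A or B. Past both thresholds 2 of the 10 ER genes were higher (background 11.2%) and 4 lower (background 53.3%). By the adjusted p 3 were higher (background 20.9%) and 7 lower (background 71.5%). All 9 genes that passed the adjusted p in group B vs. A passed it in the same direction here. Such agreement was not counted over all genes tested, whose shares were alike in group B vs. A (20.1% higher and 72.0% lower). It is therefore not read as particular to the ER genes. *Dnajb9* was higher by 3.40 on the log2 scale (11.1-fold) and *Hspa5* by 1.05 (2.07-fold), with limma adjusted p = 1.69e-12 and 6.61e-08. *Hspa5* was at 0.91 without the libraries of replicate 2, and also fell below 1 without replicate 2 of group C alone or of group D alone, which left 1 gene past both thresholds.

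*Sdf2l1* fell by 2.81, *Xbp1* by 2.76, *Herpud1* by 1.91 and *Calr* by 1.04 on the log2 scale, and after median-ratio scaling these values were -1.64, -1.54, -0.67 and 0.22. *Pdia4* (-0.86), *Pdia6* (-0.69) and *Hyou1* (-0.29) also passed the adjusted p on the deposited scale and were 0.38, 0.56 and 0.96 after median-ratio scaling. Groups C and D overlapped for *Hyou1*, which had limma adjusted p = 0.0428 and 0.244 without replicate 2 of group C. *Hsp90b1* was higher by 0.25 (limma adjusted p = 0.00227), 1.51 after median-ratio scaling, -0.04 in TPM and -0.47 after quantile normalization. The cytosolic list had 15 genes higher and 1 lower past both thresholds, the latter being *Fkbp4* (-1.80). Of all genes tested 11.2% were higher and 53.3% lower past both thresholds. Of the other ER lists, folding genes had 0 higher and 16 lower, ERAD 3 and 11, sensors 0 and 4, the PERK branch 4 and 3, the translocon 0 and 8, and transport 1 and 12. This lean to lower depended on the scaling: after median-ratio scaling the counts were 6 and 7, 7 and 4, 1 and 2, 6 and 2, 6 and 5, and 4 and 5 in the same order.

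The genes whose pattern was most like that of *Hspa5* were sought among 4749 genes whose mean FPKM reached 10, by the root mean square distance of log2(FPKM + 1) over 12 libraries after centring on group A. *Yrdc* was nearest at 0.0755, with 27.6 ± 2.41 FPKM without treatment (A), 57.5 ± 2.60 with Cu/ES (B), 76.7 ± 10.5 with Cu/ES and TCA (C) and 37.0 ± 4.46 with TCA (D) (mean ± SD, n = 3). *Eif1*, *Ghitm*, *Acsbg1* and *Eif2b2* followed, at distances of 0.128 to 0.143. None of the other 9 ER genes was among these 5.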

How the data were processed

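The authors deposited FPKM values of 24824 genes, 1 column per library, from polyadenylated RNA (VAHTS Universal V6 kit, Illumina NovaSeq). The submitters' processing notes name fastp, HISAT2, HTSeq and GRCm39. Versions, annotation and strand setting are not given in the sources used here.

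Genes were kept where the mean FPKM reached 1, and 1 model of 4 group means was fitted in limma 3.58.1 to log2(FPKM + 1) of the 12 libraries (mean-variance trend, 8 residual degrees of freedom, two-sided, Benjamini-Hochberg adjustment over 10615 genes). This scale understates the change of low genes. Plain folds are ratios of mean FPKM. Whole reads were recovered from the spacing of FPKM for 22212 of 22212 genes above 0 in at least 2 libraries (tolerance 0.02 reads) and cover counting error only. In genes above 0 in few libraries such a match is nearly certain, so the full count does not show that their reads are right. Pair ratios were compared by exact permutation tests. The model was tested on simulated data.

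The members and lists were chosen with earlier results of these data known. Named were the 10 genes, up to 3 rises and 3 falls per list and comparison past both thresholds whose mean FPKM reached 5, the cytosolic relatives, *Hspa1a*, *Hspa1b* and the 5 genes nearest to *Hspa5*. *Chordc1* and *Atp6v1c2* were named after their values were seen. Alternatives were a pseudocount of 0.1, a mean FPKM of 5 or no minimum, scaling by TPM, median ratios or quantiles, a replicate block, no trend, only the groups compared, limma-voom on recovered reads, each library left out and, chosen after seeing the data, the 4 libraries of replicate 2 left out. Python 3.11.15 and R 4.3.3 were used.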

Additional observations from a re-analysis of the deposited data

Results flagged for a closer look

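In 6 of the 10 ER genes the difference made by TCA with Cu/ES (group C vs. B) departed from that made by TCA alone (group D vs. A) by the interaction test of limma with Benjamini-Hochberg adjustment. The log2 difference between the fold changes was 0.8026 for *Hyou1* (adjusted p = 0.00363), 0.5161 for *Pdia4* (0.00200), 0.3883 for *Hsp90b1* (0.00503) and 0.3771 for *Pdia6* (0.0163), all positive. It was -0.6292 for *Xbp1* (adjusted p = 7.97e-04) and -0.2857 for *Herpud1* (0.0342). For *Xbp1* every group C library was below every group B library, and every group D library above every group A library. The first 5 kept their call under every alternative tried, with adjusted p-values up to 0.0434, whereas *Herpud1* lost it under 12 of 22, with adjusted p-values up to 0.109. Group sizes of 3 were too small for a search for single outlying libraries.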

How the results depend on the processing

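Numbers of ER genes past both thresholds depended on scaling. The 2 higher genes in group B vs. A became 1 in TPM, after quantile normalization and without the 4 libraries of replicate 2, and 1 to 2 with 1 library left out. The 6 lower genes became 1 after median-ratio scaling. In group C vs. D the 2 higher genes became 1 in TPM, after quantile normalization and without the libraries of replicate 2, and 1 to 2 with 1 library left out, and the 4 lower genes became 2 after median-ratio scaling. The lower genes of the cytosolic list in group B vs. A went from 0 to 1 in TPM. Directions of single genes turned under scaling alone. In group B vs. A median-ratio scaling gave *Hsp90b1* 1.145, *Hyou1* 0.1743, *Calr* 0.3678 and *Pdia6* 0.2129, and quantile normalization gave *Hspa5* -0.0061 and *Hsp90ab1* -0.4548. In group C vs. D median-ratio scaling gave *Hyou1* 0.9583, *Calr* 0.2160, *Pdia4* 0.3843 and *Pdia6* 0.5630, quantile normalization gave *Hsp90b1* -0.4749 and *Hsp90ab1* -0.4341, and TPM gave *Hsp90b1* -0.0401. The log2 ratio of *Hyou1* to *Hsph1* between groups B and A was -6.6443 from FPKM + 1, against -6.79. The cause of these shifts was not tested. With the replicate number as a block, *Xbp1* in group D vs. A passed (0.20, limma adjusted p = 0.0428), as did the interaction of *Sdf2l1* (0.34, adjusted p = 0.0297), and no other call on the 10 genes changed. Deviations of libraries of the same number correlated at a mean r of 0.125 (11 of 18 above 0.1, lowest -0.171). Those of libraries of different numbers had a mean r of -0.059 (7 of 36 above 0.1). The numbers were used only in the block, and whether libraries of the same number share an origin was not tested. *Sdf2l1* rested on as few as 142 reads per library in group B, the least depth among the 10 genes.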
